A study of Homo sapiens with 12 samples.

Results

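The comparison of antisense oligos against the RNA of LINE1 (L1) with non-targeting antisense oligos was taken gene by gene across the whole transcriptome of H9 cells, an established human embryonic stem cell line. It rests on 8 of the 12 libraries of the series, chosen by their labels: 4 that received ASO-L1 and 4 that received ASO-Ctr, each numbered 1 to 4. Of 53712 genes in the deposited count table, 16924 had enough reads in these 8 libraries to be tested. The other 4 libraries received SO-L1, the oligos in the sense orientation, and take no part in the results below.

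Both groups were grown in RSeT medium, a medium sold for naive human pluripotent stem cells, and both received the oligos at 25 nM. All 8 cultures were then given 10 nM DZNep, which interferes with histone methylation, and 5 nM TSA, an inhibitor of histone deacetylases, and were harvested at 48 h. Both groups also had trans-ISRIB (0.7 uM), the caspase inhibitor emricasan (5 uM) and the ROCK inhibitor Y-27632 (10 uM) until 24 h. ASO-Ctr therefore stands for cells under both drugs with an oligo of no intended target, not for untreated cells. The labels do not say whether the 4 libraries of a group came from separate cultures, so the p-values measure only the spread between these samples. No counts of L1 elements are among the genes used here, and how far L1 RNA fell was not analysed here.

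L1 elements are mobile sequences that make up a large part of the human genome, and many copies lie inside the introns of genes. Their RNA is abundant in pluripotent cells and in the early embryo, where it has been studied as a nuclear RNA as well as a template for new insertions. An antisense oligo pairs with its target RNA and can bring about its cleavage by RNase H, an enzyme that cuts RNA paired with DNA.

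Some genes that rose at least 2-fold carry the AP-1 letters TGANTCA upstream of their start site. The promoters of 4 of them, chosen after their values were seen, are shown because the text returns to these genes: ANKRD1 and ECM1 are among the 12 largest rises, SLC3A2 is among the 8 largest gains in CPM, and IL11 is a smaller rise from a list of cytokines. AP-1 factors are dimers of the FOS and JUN families, which respond to growth factors, stress and cell stretch. ANKRD1 encodes an ankyrin repeat protein of stressed muscle, ECM1 a secreted matrix protein, SLC3A2 the heavy chain of amino acid transporters and IL11 a cytokine. Each line gives the 250 bases before the start site, 5′ to 3′ on the gene's strand, from RefSeq on GRCh38.p14, with the AP-1 letters in capitals.
ANKRD1 (chr10:90921088-90921337, minus strand): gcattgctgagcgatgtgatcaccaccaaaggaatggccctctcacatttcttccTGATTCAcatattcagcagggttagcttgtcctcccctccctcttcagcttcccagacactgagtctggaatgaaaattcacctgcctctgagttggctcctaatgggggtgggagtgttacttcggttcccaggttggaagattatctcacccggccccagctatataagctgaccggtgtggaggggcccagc
ECM1 (chr1:150507859-150508108, plus strand): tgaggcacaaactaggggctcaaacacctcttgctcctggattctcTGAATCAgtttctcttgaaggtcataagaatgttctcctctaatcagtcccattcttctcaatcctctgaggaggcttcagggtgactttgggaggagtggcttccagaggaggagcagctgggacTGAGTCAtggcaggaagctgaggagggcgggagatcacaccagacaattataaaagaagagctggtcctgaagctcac
SLC3A2 (chr11:62881449-62881698, plus strand): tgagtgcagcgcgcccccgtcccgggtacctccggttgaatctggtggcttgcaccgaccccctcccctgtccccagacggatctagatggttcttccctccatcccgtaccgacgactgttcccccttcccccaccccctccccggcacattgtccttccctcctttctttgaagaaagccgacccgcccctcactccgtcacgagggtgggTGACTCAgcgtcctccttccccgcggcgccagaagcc
IL11 (chr19:55370464-55370713, minus strand): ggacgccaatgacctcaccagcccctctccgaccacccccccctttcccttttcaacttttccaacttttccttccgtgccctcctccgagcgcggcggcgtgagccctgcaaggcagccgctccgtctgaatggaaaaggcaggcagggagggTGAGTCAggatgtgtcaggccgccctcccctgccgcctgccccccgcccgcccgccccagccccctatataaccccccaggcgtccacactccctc
The site begins 195 bases before the start in ANKRD1, 37 in SLC3A2 and 96 in IL11. ECM1 holds 2 sites, at 204 and 78 bases before the start. Letters that match are a description and do not show that a factor bound there.

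With ASO-L1, 3592 genes were higher and 3773 were lower at an adjusted p under 0.05 in edgeR's quasi-likelihood test with the library number as a block. These are 21.2% and 22.3% of the genes tested. The 2 directions were alike in number and unlike in size. Among higher genes, 401 (2.37% of those tested) rose at least 2-fold, 113 at least 4-fold and 40 at least 8-fold. Among lower genes, 31 (0.183%) fell at least 2-fold and 0 at least 4-fold. The median change among higher genes was 1.22-fold and that among lower genes 1.2-fold. The 4 libraries of a group did not overlap with the other 4 for 2117 of the higher and 1996 of the lower genes. In the 4 pairs of libraries with the same number, 3410 higher and 3581 lower genes moved the same way every time. Summed over all genes called, the higher genes went from 210250 to 246462 CPM (read counts scaled to the effective size of each library) and the lower genes from 311828 to 268190 CPM. CPM is relative to the total of each library, and in bulk cultures fewer cells of a type and less RNA per cell cannot be told apart.

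**Figure D1:**
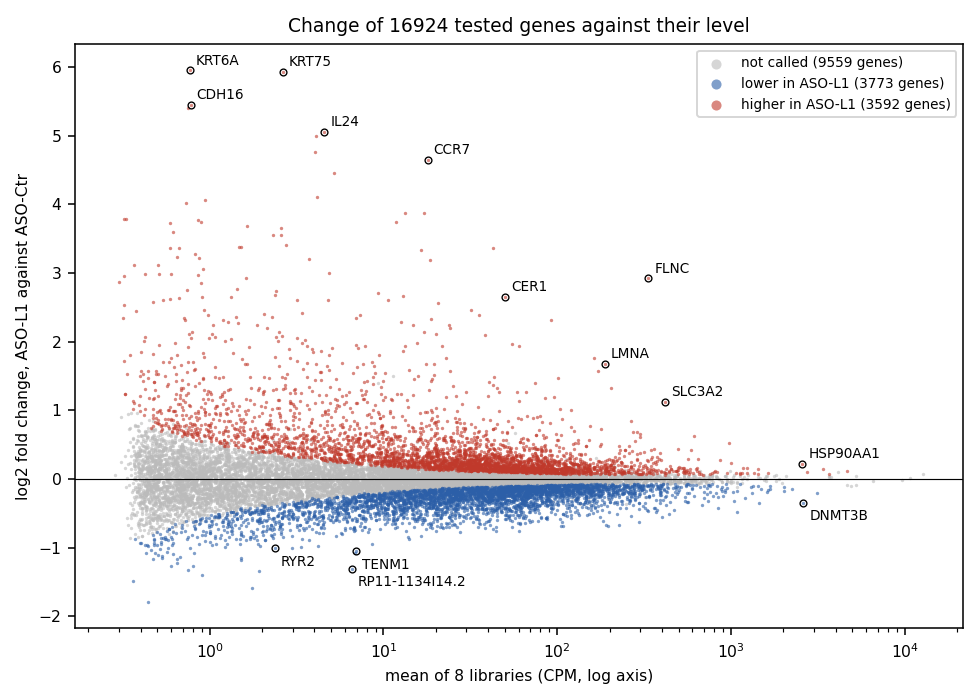
Each point is 1 of the 16924 tested genes, with its mean over 8 libraries in CPM on a log axis and its log2 fold change for ASO-L1 against ASO-Ctr on the vertical axis. The cloud reaches far higher above 0 than below it: KRT75 stands at 5.92, while the deepest fall at a mean of at least 2 CPM, RP11-1134I14.2, stands at -1.31.

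The largest rises belonged to genes with low levels in ASO-Ctr. The filter on low counts worked by group. Genes as low in ASO-Ctr as KRT75, here and below, were therefore tested only through their reads in ASO-L1. That such genes appear as large rises is partly set by the filter, and they are given as a description. KRT75, a type II keratin of hair follicles, had 0.15, 0, 0.0793 and 0.124 CPM in ASO-Ctr 1 to 4 and 2.13, 2.86, 8.21 and 7.55 CPM in ASO-L1 1 to 4. The groups lay far apart, with the higher values in numbers 3 and 4 of ASO-L1, and the log2 fold change was 5.92 ± 0.29 (SE; adjusted p = 4.23e-11). KRT16, a keratin of stressed and regenerating skin, had 0.199, 0.205, 0.317 and 0.412 CPM in ASO-Ctr and 7.41, 7.27, 7.72 and 8.69 CPM in ASO-L1 (4.75 ± 0.17). KRT16 was even across the 4 libraries of ASO-L1, whereas KRT75 was not.

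IL24 and CCR7 were among the 12 largest rises. IL24, a cytokine of the IL10 family, had 0.249, 0.103, 0.436 and 0.289 CPM in ASO-Ctr and 5.68, 5.85, 12.5 and 11.4 CPM in ASO-L1 (5.05 ± 0.17, adjusted p = 2.92e-13). CCR7, the chemokine receptor that guides lymphocytes to lymph nodes, had 0.15, 0.444, 2.58 and 2.35 CPM in ASO-Ctr and 28.1, 28.2, 41.2 and 40.9 CPM in ASO-L1 (4.65 ± 0.39, adjusted p = 0.00296). The groups were far apart. The control level of CCR7 was itself higher in numbers 3 and 4, and its log2 fold change was 6.42 in numbers 1 and 2 against 4.06 in numbers 3 and 4, a difference that passed the interaction test (adjusted p = 1.47e-04 in edgeR's quasi-likelihood test). TRH, the precursor of thyrotropin-releasing hormone, went from 1.67 ± 0.658 to 24.9 ± 2.37 CPM (mean ± SD, n = 4; 3.88 ± 0.12). IL11, whose promoter is shown above, went from 2.33 ± 0.367 to 12.3 ± 0.89 CPM (2.39 ± 0.10).

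A water channel and genes of neurons also rose from a low base. AQP1, a water channel, had 0.299, 0.171, 0.238 and 0.289 CPM in ASO-Ctr and 7.89, 8.05, 8.38 and 7.22 CPM in ASO-L1 (4.99 ± 0.18, adjusted p = 3.94e-13). All 4 ASO-L1 libraries agreed closely and none came near the controls. DRGX, a homeobox factor of sensory neurons, had 0, 0.205, 0.595 and 0.742 CPM in ASO-Ctr and 5.68, 4.53, 4.54 and 4.16 CPM in ASO-L1 (3.56 ± 0.49, adjusted p = 0.00322). STMN4, a stathmin of neurons that binds tubulin, went from 2.18 ± 0.9 to 31.9 ± 3.97 CPM (3.87 ± 0.10).

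ANKRD1 and ECM1, 2 of the promoters shown, behaved differently from each other across the libraries. ANKRD1 had 0.548, 0.239, 0.515 and 0.453 CPM in ASO-Ctr and 16.9, 15.1, 3.84 and 3.63 CPM in ASO-L1 (4.46 ± 0.42, adjusted p = 0.000862). The rise was much larger in numbers 1 and 2 (5.42) than in numbers 3 and 4 (2.93), and this difference passed the interaction test (adjusted p = 0.00674). ECM1 had 1.64, 1.47, 1.62 and 1.77 CPM in ASO-Ctr and 23.6, 21.8, 22.3 and 19.8 CPM in ASO-L1 (3.75 ± 0.09, adjusted p = 2.55e-15), with values of 3.86 and 3.63 in the 2 sets.

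**Figure D2:**
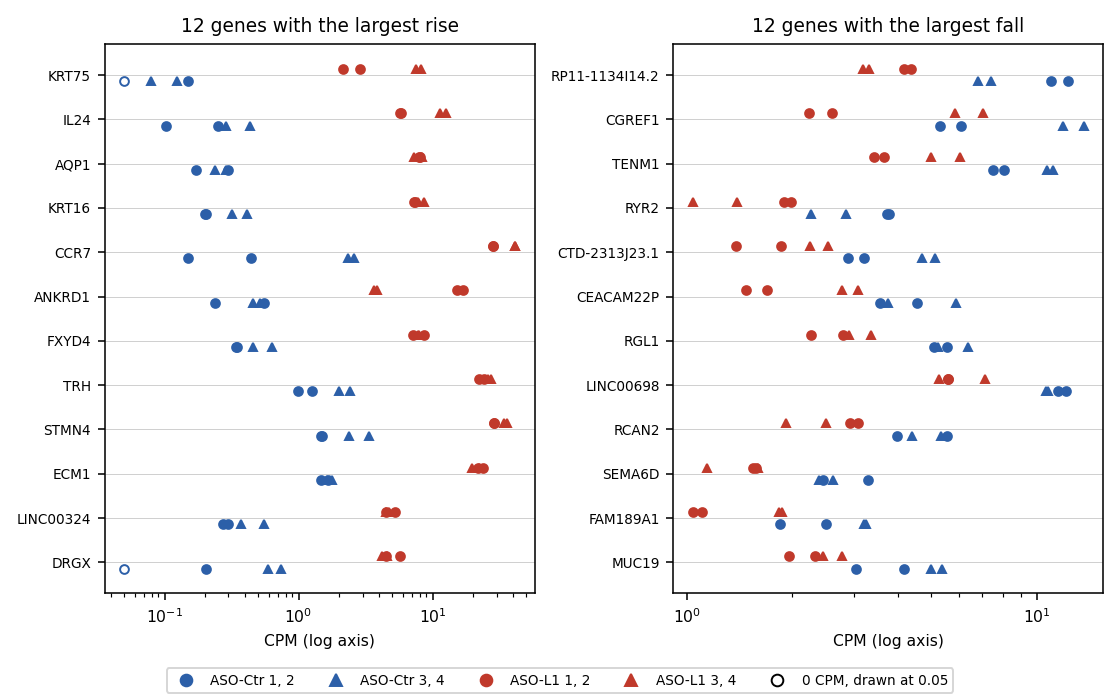
CPM on a log axis in each of the 8 libraries for the 12 genes with the largest rise and the 12 with the largest fall, at a mean of at least 2 CPM; blue is ASO-Ctr, red ASO-L1, circles numbers 1 and 2, triangles numbers 3 and 4, and open circles a value of 0. Every gene of the left panel has its 2 groups apart, while CGREF1 and FAM189A1 in the right panel overlap between groups, numbers 3 and 4 being higher in both.

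Of the genes tested, 5 stood at or under 0.1 CPM in every ASO-Ctr library, and all 5 were called higher. No tested gene did so in every ASO-L1 library. The filter on low counts worked by group, so genes this low in ASO-Ctr were tested only through their reads in ASO-L1. Their number and their calls are therefore set by the filter, and the genes are given as a description. CDH16, a cadherin of kidney epithelium, had 3 reads in the 4 ASO-Ctr libraries together and 168 in ASO-L1, a ratio of 50.1 after scaling (95% exact interval for counting error, 16.8 to 245). KRT6A, a keratin of wounded skin, had 2 and 166 reads (ratio 74.2, interval 20.2 to 618). The remaining 3 were C10orf54, STMND1 and RNF223, with ratios of 9.19, 15.2 and 15.2. C10orf54, also known as VSIR, encodes an immune checkpoint receptor. PCR copies are not independent molecules, and these intervals cover counting error only.

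The falls were shallower, and TENM1 and RYR2, single genes of neurons and heart muscle, were among the deepest. The lists of neural markers and muscle genes, given below, held more rises than falls. RP11-1134I14.2, a gene with a clone name only, had 12.3, 11, 7.41 and 6.8 CPM in ASO-Ctr and 4.38, 4.18, 3.19 and 3.31 CPM in ASO-L1 (-1.31 ± 0.10, adjusted p = 7.57e-09). TENM1, a teneurin that links neurons across synapses, had 8.07, 7.52, 10.7 and 11.1 CPM in ASO-Ctr and 3.67, 3.43, 6.03 and 4.98 CPM in ASO-L1 (-1.05 ± 0.09, adjusted p = 5.73e-08). RYR2, the calcium release channel of heart muscle, had 3.79, 3.73, 2.85 and 2.27 CPM in ASO-Ctr and 1.89, 1.98, 1.04 and 1.39 CPM in ASO-L1 (-1.01 ± 0.15). In these 3 genes every ASO-L1 library lay below every ASO-Ctr library, and TENM1 and RYR2 moved by number in opposite ways, TENM1 being higher and RYR2 lower in numbers 3 and 4. RGL1, an exchange factor for RAL GTPases, went from 5.55 ± 0.562 to 2.83 ± 0.449 CPM (-0.97 ± 0.12). SEMA6D, a membrane-bound semaphorin, went from 2.68 ± 0.411 to 1.46 ± 0.215 CPM (-0.88 ± 0.15), and RCAN2, an inhibitor of calcineurin, from 4.81 ± 0.738 to 2.6 ± 0.52 CPM (-0.89 ± 0.14). CGREF1, a secreted calcium-binding protein, had -1.08 ± 0.09 with an adjusted p of 4.45e-08, and 0.11 without the block.

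Rises were also ranked by CPM gained, among called genes with the same direction in all 4 pairs. The 8 largest were in FLNC, HSP90AA1, EEF1A1, ACTG1, FTL, SLC3A2, KRT8 and LMNA. They are genes of the cytoskeleton and nuclear envelope, a chaperone, a translation factor, ferritin and an amino acid transporter. FLNC, a filamin that crosslinks actin in muscle, had 60.9, 60.5, 101 and 93.7 CPM in ASO-Ctr and 619.6, 647, 562 and 531 CPM in ASO-L1 (2.92 ± 0.26, adjusted p = 0.00398). It gained the most CPM among the called genes ranked here. Numbers 1 and 2 gave a log2 fold change of 3.39, against 2.49 for numbers 3 and 4 (adjusted p = 3.28e-10 for the difference), with the controls higher and the ASO-L1 libraries lower in numbers 3 and 4. LMNA, which encodes the A-type lamins of the nuclear envelope, had 74.1, 75.7, 110.1 and 102 CPM in ASO-Ctr and 278, 293, 287 and 289.7 CPM in ASO-L1 (1.68 ± 0.14, adjusted p = 0.00284). The 4 ASO-L1 libraries of LMNA were nearly level, and the numbers differed through the controls (1.93 against 1.44, adjusted p = 2.86e-05).

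SLC3A2, the heavy chain that carries several amino acid exchangers to the plasma membrane, had 239, 241, 292 and 274 CPM in ASO-Ctr and 518, 509, 631 and 623 CPM in ASO-L1 (1.12 ± 0.03, adjusted p = 2.33e-15). FTL, the light chain of the iron store ferritin, went from 793 ± 59.5 to 1145 ± 44.6 CPM (0.53 ± 0.03), and KRT8, the keratin of simple epithelia, from 478 ± 50 to 739.8 ± 25 CPM (0.63 ± 0.04). The groups did not overlap for these 3 genes. HSP90AA1, a stress-inducible chaperone, rose by 0.22 ± 0.03, EEF1A1, a translation elongation factor, by 0.12 ± 0.03, and ACTG1, a cytoskeletal actin, by 0.15 ± 0.03. None of these last 3 passed without the block (adjusted p = 0.05, 0.25 and 0.12 in edgeR's quasi-likelihood test). EEF1A1 also missed the threshold without ASO-L1 4 (adjusted p = 0.051).

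Among the genes called lower, the largest losses in CPM included genes active in pluripotent cells. DNMT3B, the de novo DNA methyltransferase of early embryonic cells, had 2993, 2965, 2785 and 2923 CPM in ASO-Ctr and 2282, 2344, 2262 and 2308 CPM in ASO-L1 (-0.34 ± 0.03, adjusted p = 7.25e-09). Every ASO-L1 library lay below every ASO-Ctr library. TUBB, a beta tubulin, went from 3329 ± 125 to 2885 ± 50.1 CPM (-0.21 ± 0.03), and DPYSL3, which acts on the cytoskeleton of growth cones, from 1267 ± 73.3 to 908 ± 39.7 CPM (-0.48 ± 0.03). HSP90B1, the HSP90 chaperone of the endoplasmic reticulum, went from 1632 ± 45 to 1280.3 ± 95.7 CPM (-0.35 ± 0.03), so that HSP90AA1 and HSP90B1 moved in opposite directions. UGP2, which makes UDP-glucose, fell by 0.42 ± 0.03 and SERBP1, an RNA-binding protein, by 0.32 ± 0.03 on the log2 scale. RPL3, a protein of the large ribosomal subunit, and SCD, the stearoyl-CoA desaturase, were also among the 8 with the largest loss, with -0.18 ± 0.03 and -0.27 ± 0.03, and did not pass without the block (adjusted p = 0.11 and 0.15).

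Some of the most abundant genes moved little. The log2 fold change had a 95% interval within -0.1 to 0.1 for 734 genes. The 6 of them with the highest levels were HSP90AB1 (log2 fold change 0.03 ± 0.03), NCL (0.04 ± 0.02), NPM1 (-0.00 ± 0.02), PKM (-0.02 ± 0.03), RPS6 (0.04 ± 0.03) and GAPDH (-0.03 ± 0.03). They serve protein folding, the nucleolus, glycolysis and the ribosome. HSP90AB1 and RPS6 passed when number 2 of either group was left out (adjusted p from 0.029 to 0.043), at changes that remained small.

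The size of a rise went with the level of the gene, shown here over 5 equal classes of genes ordered by mean CPM. Of the 401 rises of at least 2-fold, 181 lay in the class with the lowest mean (0.287 to 1.74 CPM), and 13 in the class with the highest (68.6 to 12703 CPM). Small changes were called mostly at high levels: 11.3% of the lowest class were higher and 5.70% lower, against 24.5% and 32.1% of the highest class. The precision of a call grows with the count.

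The direction of the calls went with gene span. Span is here the distance from start to end of the gene in GENCODE v29, introns included, for 14230 protein-coding genes matched by symbol and put into 5 equal classes. In the class with the shortest spans (207 to 10477 bp), 29.1% of genes were higher and 12.6% lower. In the class with the longest spans (from 103348 bp upward) 8.89% were higher and 48.5% lower. The shares in the 3 classes between them followed in order for lower genes, at 13.7%, 19.6% and 29.2%. The median log2 fold change was 0.05 in the shortest and -0.18 in the longest class, and -0.01 over all coding genes.

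The pattern was present in every pair of libraries and at every level of expression. In the 4 same-number pairs the median log2 ratio of the longest class was -0.172, -0.151, -0.176 and -0.152. That of the shortest class was 0.0466, 0.0592, 0.055 and 0.0481. Among genes of the lowest of 3 classes by CPM the longest class had 31.5% lower and 7.96% higher. Among those of the highest it had 61.3% lower and 9.45% higher. Exonic length, the summed length of all annotated exons, showed the same direction with a smaller range: 13.8% of the shortest class and 37.7% of the longest class were lower. Longer genes have both longer exons and longer introns, and their parts in the pattern cannot be told apart from these shares. Without the block, 28.1% of the longest class were lower and 3.79% higher.

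**Figure D3:**
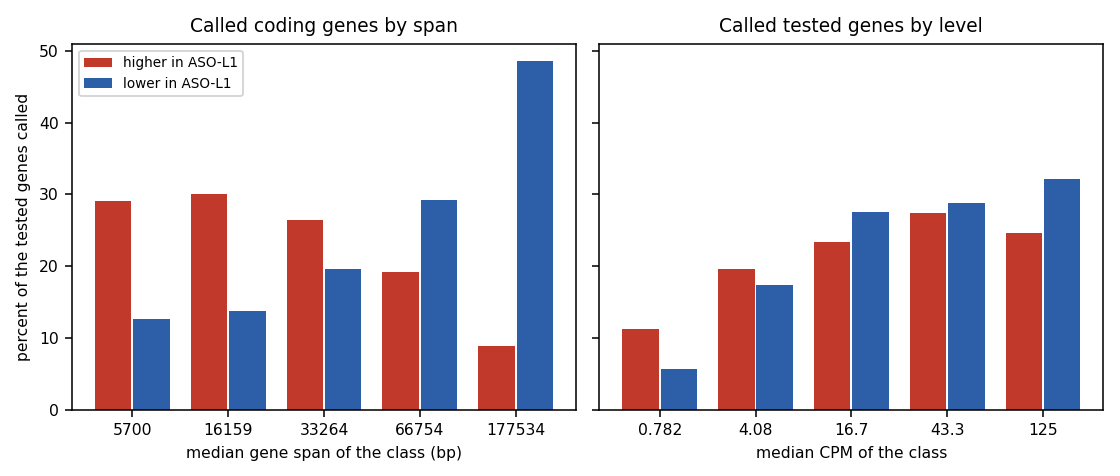
Percent of tested genes called higher (red) or lower (blue) in ASO-L1, on the left for 5 equal classes of coding genes by span and on the right for 5 of all tested genes by mean level. In the left panel the blue bars climb from 12.6% to 48.5% while the red bars end at 8.89%; in the right panel the blue bars climb from 5.70% to 32.1% and the red bars peak in the fourth class at 27.4%.

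Chromosomes differed in their balance of calls. Chromosome 19 had the lowest share of lower genes, with 13.9% lower and 26.7% higher of 1152 tested. Chromosome X had the highest share of lower genes, 35.2% of 577, with 14.0% higher, and chromosome 4 had 30.8% lower and 13.8% higher of 556. Chromosome 1 had the largest share of higher genes (27.5%). Chromosome 19 is known for short, densely packed genes, and the coding genes tested there had a median span of 17133 bp against 33263 bp over all coding genes. For chromosome X the median was 29493 bp, and its coding genes of the shortest class were lower in 30.9% of 152 cases, against 12.6% over the shortest class of all chromosomes. Its longest class was lower in 62.6% of 123 cases against 48.5%. In the second class by span the order was the other way, with 10.7% of 84 lower on X against 13.7%.

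**Figure D4:**
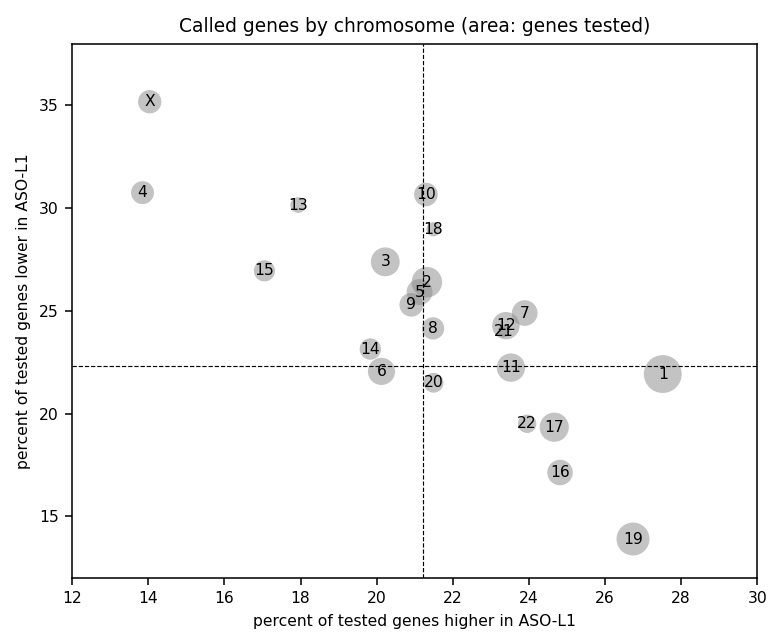
Each circle is a chromosome, placed by the percent of its tested genes that were higher (horizontal) and lower (vertical) in ASO-L1, with an area that grows with the number of genes tested; dashed lines mark all tested genes. Chromosome 19 stands at the lower right with 26.7% higher and 13.9% lower, and chromosomes X and 4 at the upper left.

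The letters in the promoters were compared over the 11628 tested coding genes (81.7%) with a RefSeq promoter from 250 bases before to 50 after the start, searched on both strands. AP-1 letters (TGANTCA, which neither hold nor lie within another motif named here) were present in 4.63% of these promoters. Of the 538 genes with them, 29.7% were higher and 7.06% rose at least 2-fold, against 22.2% and 1.90% of the 11090 without. For lower genes the shares were 23% and 25.2%. The composite element core of C/EBP and ATF factors (TGATGNAA) was present in 196 promoters, of which 5.10% belonged to genes that rose at least 2-fold, against 2.09% of the others. The TATA box (TATAAA, anywhere in the window) was present in 664, with 5.27% and 1.95%. ETS letters (CCGGAAG) gave the opposite order: of 2065 genes with them 0.339% rose at least 2-fold, against 2.53% of 9563 without. Promoters with the cyclic AMP response element (TGACGTCA, 365 genes) had 31.8% of genes higher but 1.64% at least 2-fold. For the E-box (CACGTG, 1.57%), the sterol response element (TCACNCCAC, 1.44%), the CCAAT box (CCAAT, 1.86%) and the SP1 site (GGGCGG, 1.98%) the share that rose at least 2-fold was below that of promoters without them (2.20%, 2.15%, 2.30% and 2.50%). The heat shock element (GAANNTTC) had 3.46% against 2.08%, and the serum response element was present in 7 promoters. TATA boxes are typical of inducible and tissue genes and ETS letters of housekeeping genes, and the part of expression level in these shares was not tested.

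Keratins had the largest share of higher members among the lists. Of 12 keratin genes tested, 11 were higher, 0 lower and 1 did not pass, with a median log2 fold change of 1.05 against -0.01 over all genes. Keratins form the intermediate filaments of epithelia. Without the block 10 of the 12 were higher. The members range from KRT8, an abundant keratin of these cells, to KRT75 and KRT16, described above. The summed level of the 12 was 643 to 776 CPM in ASO-Ctr and 1039 to 1106 CPM in ASO-L1, mostly KRT8. The other keratins in the table, 48 of 60, were too low to be tested. KRT75 and KRT16 had few reads in ASO-Ctr and were tested through their level in ASO-L1. A keratin that stayed as low in both groups was not tested, so the share of higher members is partly set by the filter.

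**Figure D5:**
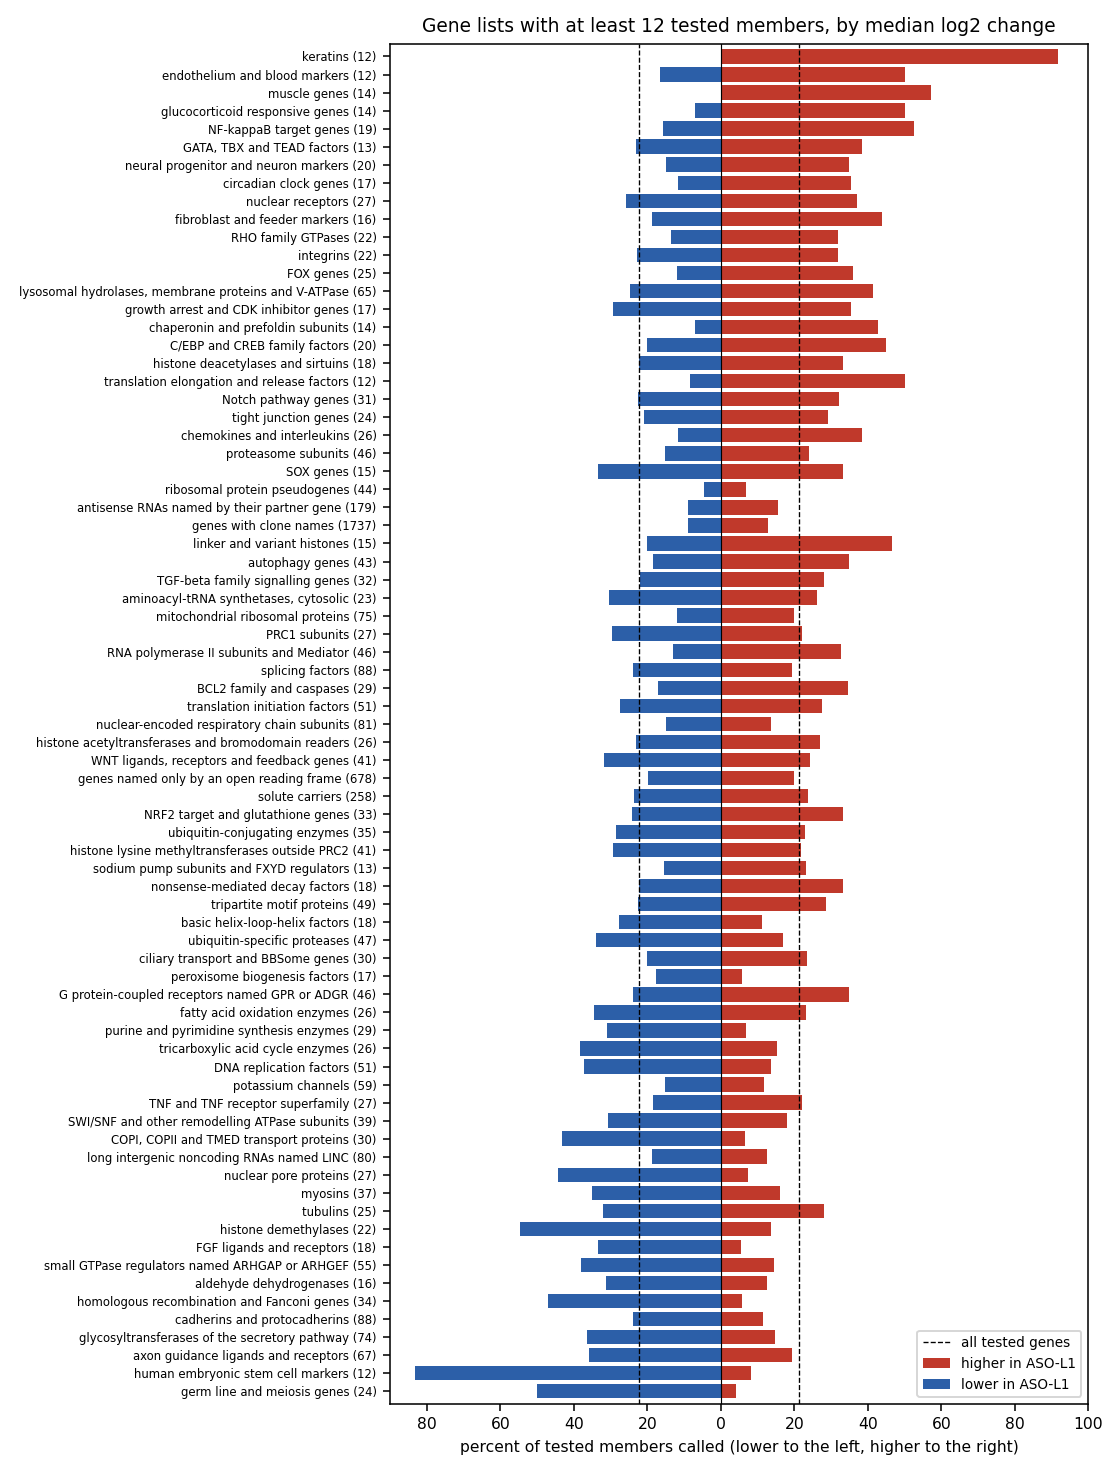
Percent of the tested members called lower (blue, to the left) and higher (red, to the right) for 75 gene lists with at least 12 tested members (number in brackets), ordered by median log2 fold change. Dashed lines mark the shares over all tested genes. The list of host genes with names ending in HG, with 25 tested members, is not drawn. Keratins stand at the top with 91.7% higher, and germ line genes and stem cell markers at the bottom, with 50% and 83.3% of their members lower.

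Adhesion genes split, as did all genes tested (21.2% higher and 22.3% lower). Of 22 integrins, 7 were higher and 5 lower (31.8% and 22.7%). ITGAX, an integrin chain of white blood cells, went from 1.52 ± 0.239 to 5.75 ± 0.522 CPM (1.94 ± 0.14) and ITGA5, the chain that binds fibronectin, from 17.5 ± 1.86 to 26.4 ± 1.06 CPM (0.59 ± 0.06). ITGA6, the laminin receptor chain abundant on pluripotent cells, fell from 209 ± 24.6 to 154 ± 15.4 CPM (-0.44 ± 0.03). Of 24 tight junction genes 7 were higher and 5 lower (29.2% and 20.8%). Higher members included CGN (0.49 ± 0.04) and OCLN (0.48 ± 0.04), which encode cingulin and occludin, and lower ones JAM3 (-0.45 ± 0.04). Of 88 cadherins and protocadherins 10 were higher and 21 lower (11.4% and 23.9%). E-cadherin, CDH1, had 224 ± 7.11 CPM in ASO-Ctr and 184 ± 3.84 CPM in ASO-L1 (-0.29 ± 0.03). PCDH8, a protocadherin of the paraxial mesoderm, rose (1.43 ± 0.09).

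Several lists with many long genes leaned downward, and nuclear receptors did not. Of all genes tested, 21.2% were higher and 22.3% lower. Of 67 genes for axon guidance ligands and receptors, 30 of them in the longest class by span, 13 were higher and 24 lower (median -0.14). SEMA3A, a secreted semaphorin, fell from 71.6 ± 9.13 to 49.1 ± 9.37 CPM (-0.56 ± 0.04), and NEO1, a receptor for netrins, from 63.2 ± 1.44 to 45.6 ± 1.61 CPM (-0.47 ± 0.04). Other members of the list rose, such as the ephrin gene EFNB2 (0.67 ± 0.06) and the receptor gene EPHA2 (0.73 ± 0.07), and so did NRP2, a co-receptor for semaphorins (0.92 ± 0.08). Of 55 regulators of small GTPases named ARHGAP or ARHGEF, 26 of them in the longest class, 8 were higher and 21 lower. ARHGAP28 had -0.75 ± 0.06, and ARHGEF2, an exchange factor released from microtubules, 0.60 ± 0.04. The GTPases themselves leaned the other way, with 7 of 22 higher and 3 lower, and RHOU, an atypical member, at 1.24 ± 0.09. Of 74 glycosyltransferases of the secretory pathway (22 in the longest class) 11 were higher and 27 lower, with ST6GAL1, a sialyltransferase, at 264 ± 34.5 CPM and 198 ± 27.5 CPM (-0.41 ± 0.03). Nuclear receptors, with 12 of 27 in the longest class, had 10 higher and 7 lower (median 0.13). How much of these shares goes with span was not tested.

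The lists of chemokines and interleukins, NF-kappaB targets and glucocorticoid responsive genes held more rises than falls. Of all genes tested, 21.2% were higher and 22.3% lower. Among 26 genes tested for chemokines, interleukins and receptors of interleukins, 10 were higher and 3 lower (38.5% and 11.5%), and 8 and 0 without the block. The median log2 fold change of these 26 was 0.06. IL6R, a receptor chain for IL6, rose by 0.94 ± 0.09, beside IL24 and IL11 described above. Of 19 NF-kappaB targets 10 were higher and 3 lower (52.6% and 15.8%). PLAU, the urokinase protease, went from 4.05 ± 0.664 to 13.2 ± 1.92 CPM (1.71 ± 0.08), NFKB2, a precursor subunit, from 59.7 ± 15.2 to 97.1 ± 18.4 CPM (0.71 ± 0.04) and NFKBIA, the inhibitor that holds the factor in the cytosol, from 17.8 ± 0.375 to 27.5 ± 0.84 CPM (0.63 ± 0.05). NFKBIB, a second inhibitor, fell (-0.31 ± 0.04). Of 14 genes known to respond to glucocorticoids 7 were higher and 1 lower (50% and 7.14%). DUSP1, a phosphatase of MAP kinases, stood at 8.41 ± 1.25 CPM in ASO-Ctr and 26.7 ± 1.53 CPM in ASO-L1 (1.67 ± 0.07). DUSP1 and NFKBIA respond to many stimuli, and NFKBIA is in both lists.

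Among receptors, TNFRSF12A, which binds the cytokine TWEAK, had 25.1, 26.9, 22.3 and 22.4 CPM in ASO-Ctr and 55.8, 59.8, 53.7 and 53.8 CPM in ASO-L1 (1.21 ± 0.04, adjusted p = 6.03e-13). TNFRSF10B, the death receptor for TRAIL, had 92.2, 90.1, 81.4 and 73.5 CPM in ASO-Ctr and 55.8, 59.2, 52.9 and 49.6 CPM in ASO-L1 (-0.63 ± 0.04). Members of 1 superfamily with opposite changes were thus both clear of the spread. The superfamily as a whole had 6 higher and 5 lower of 27 (22.2% and 18.5%), near the 21.2% and 22.3% of all genes tested.

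Growth factor pathways were mixed, as were all genes tested (21.2% higher and 22.3% lower). Of 18 FGF ligands and receptors FGF1 alone was higher (4.81 ± 1.08 to 12.5 ± 1.35 CPM, 1.38 ± 0.09), and 6 were lower, among them FGFR2 (-0.31 ± 0.03) and FGF13 (-0.33 ± 0.04). Of 11 EGF family ligands and receptors 2 were higher and 5 lower. HBEGF, a ligand of the EGF receptor, rose (1.34 ± 0.13) and EGFR itself fell (-0.47 ± 0.11). Of 41 WNT genes 10 were higher and 13 lower: AXIN1, a scaffold of the destruction complex, rose (0.33 ± 0.04), while the feedback gene AXIN2 (-0.30 ± 0.04) and the repressor TCF7L1 (-0.36 ± 0.03) fell. HES1, a target of Notch, rose (1.46 ± 0.14), as did NR4A1, an early response nuclear receptor (6.17 ± 0.73 to 13.7 ± 0.831 CPM, 1.15 ± 0.08). Among G protein-coupled receptors GPR56 rose (1.54 ± 0.08) and GPR176 fell (-0.64 ± 0.04), with 16 of 46 higher and 11 lower.

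Among lists of transport and metabolism, solute carriers were balanced and others were not. Of 258 solute carriers 61 were higher and 61 lower, shares near the background. SLC6A8, the creatine transporter, rose (0.53 ± 0.03) and SLC39A10, a zinc importer, fell from 208 ± 22.9 to 142 ± 14 CPM (-0.55 ± 0.03). FXYD4, a small subunit that tunes the sodium pump, had 4.11 ± 0.16, and 3 of 13 pump genes were higher and 2 lower in all, shares of 23.1% and 15.4%. Of 81 nuclear-encoded subunits of the respiratory chain 11 were higher and 12 lower, with none past 2-fold, a smaller share of calls than over all genes. Of 26 enzymes of the tricarboxylic acid cycle 4 were higher and 10 lower, among them IDH1 (-0.27 ± 0.03) and IDH2 (-0.34 ± 0.05).

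Lysosomal genes had a larger share of rises than all genes and about the same share of falls. Of 65 genes for lysosomal enzymes, membrane proteins and the proton pump, 27 were higher and 16 lower (41.5% and 24.6%, against 21.2% and 22.3% of all genes tested), and 11 and 6 without the block. NEU1, a sialidase, went from 89.6 ± 8.96 to 151 ± 12.6 CPM (0.75 ± 0.03), CTSB, cathepsin B, from 76.7 ± 9.16 to 120.3 ± 5.91 CPM (0.65 ± 0.04) and CTSL1, cathepsin L, from 58.4 ± 5.88 to 91.7 ± 11.6 CPM (0.65 ± 0.04). PPT1, a thioesterase, fell (-0.22 ± 0.03). Of 43 autophagy genes 15 were higher and 8 lower (34.9% and 18.6%), and 6 and 3 without the block. SQSTM1, the cargo receptor p62, had 62.3, 65.4, 76.6 and 70.5 CPM in ASO-Ctr and 136, 137, 143 and 139 CPM in ASO-L1 (1.02 ± 0.04, adjusted p = 5.88e-13). Its groups were far apart, and ATG13, a part of the initiating kinase complex, moved the other way (-0.38 ± 0.04). HMOX1, haem oxygenase, rose from 21.1 ± 5.72 to 37.1 ± 7.55 CPM (0.82 ± 0.05), while ME1, malic enzyme, another target of the oxidative stress factor NRF2, fell from 18.2 ± 0.798 to 9.99 ± 1.15 CPM (-0.87 ± 0.07). That list had 11 higher and 8 lower of 33.

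Genes for handling RNA and protein changed by small steps. Of 51 translation initiation factors 14 were higher and 14 lower (27.45% each, beside 21.2% and 22.3% of all genes tested). EIF1 (0.32 ± 0.03) and EIF5 (0.28 ± 0.03) were up. EIF4G3 (133 ± 2.25 to 83 ± 5.74 CPM, -0.68 ± 0.04) and EIF3D (-0.50 ± 0.03) were down. Of 23 cytosolic aminoacyl-tRNA synthetases 6 were higher and 7 lower, TARS falling from 605 ± 26.5 to 484 ± 15.2 CPM (-0.32 ± 0.03). Of 46 genes of RNA polymerase II and Mediator 15 were higher and 6 lower, the polymerase's largest subunit POLR2A among them (253 ± 18.4 to 325 ± 31.9 CPM, 0.36 ± 0.03). Nuclear pore proteins had 2 higher and 12 lower of 27, with NUP210 (-0.33 ± 0.03) and RANBP2 (-0.31 ± 0.03) lower. Coat and cargo proteins between the endoplasmic reticulum and Golgi had 2 higher and 13 lower of 30, led by SEC13 (114 ± 3.75 to 79.6 ± 2.36 CPM, -0.51 ± 0.03). NBAS, which acts in both retrograde transport and nonsense-mediated decay, fell from 50.1 ± 7.33 to 31.7 ± 3.52 CPM (-0.66 ± 0.04).

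Chromatin genes were called in both directions, as were all genes tested (21.2% higher and 22.3% lower). Of 22 histone demethylases 3 were higher and 12 lower, and without the block 2 and 3. KDM3B fell (-0.21 ± 0.03). Of 39 remodelling subunits, 12 of them in the longest class, 7 were higher and 12 lower. SMARCA2, an ATPase of the BAF complex, had 141, 142, 117 and 117 CPM in ASO-Ctr and 85.2, 85.4, 72.3 and 77.7 CPM in ASO-L1 (-0.69 ± 0.03, adjusted p = 2.83e-11). ARID1B, a further BAF subunit, went from 96.4 ± 4.23 to 65.2 ± 3.39 CPM (-0.56 ± 0.04). Both had groups that did not overlap. SETD7, a histone methyltransferase, rose from 12.8 ± 1.34 to 25.4 ± 1.96 CPM (0.98 ± 0.08), as did PCGF1 (0.90 ± 0.08) of Polycomb complex 1. The list of that complex had 6 higher and 8 lower of 27 (22.2% and 29.6%). Of 18 histone deacetylases and sirtuins 6 were higher and 4 lower (33.3% and 22.2%), and 4 and 0 without the block. HDAC7 (0.42 ± 0.04), HDAC5 (0.35 ± 0.04) and SIRT7 (0.55 ± 0.05) were the higher members with the smallest p. Both groups had received the deacetylase inhibitor TSA.

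Among transcription factors, TWIST1, a driver of mesenchymal programs, had 2.59, 2.7, 4.32 and 3.38 CPM in ASO-Ctr and 11.9, 12, 13.6 and 12.2 CPM in ASO-L1 (1.94 ± 0.10, adjusted p = 7.84e-11). DDIT3, the stress factor CHOP, had 7.78, 8.99, 12.8 and 10.9 CPM in ASO-Ctr and 25.6, 24.9, 33.7 and 31.5 CPM in ASO-L1 (1.51 ± 0.06), and CEBPB, its dimer partner, went from 19.2 ± 2.78 to 34.2 ± 4.39 CPM (0.84 ± 0.06). In all 3 the groups stood apart. The list of C/EBP and CREB family factors had 9 higher and 4 lower of 20 (45% and 20%, against 21.2% and 22.3% of all genes tested). SOX15 (0.69 ± 0.05) and SOX9 (0.96 ± 0.13) rose, whereas SOX21 fell from 43 ± 4.8 to 28.3 ± 2.86 CPM (-0.60 ± 0.04) together with SOX2 (-0.23 ± 0.03). Of 25 FOX genes 9 were higher and 3 lower, and the falls included FOXP1 (-0.57 ± 0.05) and FOXN3 (-0.36 ± 0.03).

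Recombination and replication genes leaned downward. Of all genes tested, 21.2% were higher and 22.3% lower. Of 34 genes for homologous recombination and the Fanconi pathway, 2 were higher and 16 lower (5.88% and 47.1%, median -0.11), and 1 and 9 without the block. BRIP1, a helicase partner of BRCA1, had 31.4, 33.2, 29.2 and 31.2 CPM in ASO-Ctr and 20.5, 19.5, 19.3 and 20 CPM in ASO-L1 (-0.66 ± 0.05, adjusted p = 1.13e-08). The gap was wider than the spread in either group. ATM, the kinase that senses double-strand breaks, went from 50.2 ± 2.31 to 37 ± 3.43 CPM (-0.44 ± 0.05). FANCA was 1 of the 2 that rose (0.24 ± 0.05). Of 51 DNA replication factors 7 were higher and 19 lower (13.7% and 37.3%), and 0 and 8 without the block. CDC7 (-0.31 ± 0.03) and POLA2 (-0.43 ± 0.05) were lower.

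Genes of growth arrest and cell death held some strong rises. GADD45B, a stress gene that binds MAP kinase kinases, had 8.32, 7.28, 10.1 and 10 CPM in ASO-Ctr and 27.5, 26.1, 43.3 and 39.9 CPM in ASO-L1 (1.93 ± 0.06, adjusted p = 2.03e-13). GADD45A went from 23.5 ± 2.92 to 61.6 ± 18.1 CPM (1.37 ± 0.09), and GADD45G fell (-0.34 ± 0.06), so that the 3 paralogs did not move together. The rise of GADD45A was larger in numbers 3 and 4 (1.57) than in numbers 1 and 2 (1.14; adjusted p = 0.0106 for the difference). HRK, a BH3-only activator of cell death, had 10.6, 10.4, 10.8 and 10.2 CPM in ASO-Ctr and 30.2, 27.5, 23.3 and 22.7 CPM in ASO-L1 (1.30 ± 0.07), and BIK (1.15 ± 0.11) and BBC3 (0.36 ± 0.05) also rose. The list of BCL2 family genes and caspases had 10 higher and 5 lower of 29 (34.5% and 17.2%, against 21.2% and 22.3% of all genes tested). Emricasan, a caspase inhibitor, was present in both groups for the first 24 h.

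The stem cell identity of the cultures was visible in every library, and most of its markers were slightly lower with ASO-L1. All 12 markers of human embryonic stem cells were expressed, with a summed level of 8540 to 9487 CPM in ASO-Ctr and 7771 to 8667 CPM in ASO-L1, ranges that overlap. Of them 10 were lower, 1 higher and 1 not called, at a median log2 fold change of -0.14. The share lower was 83.3%, against 22.3% of all genes tested. POU5F1, the core pluripotency factor, had 1109, 1154, 1032 and 1069 CPM in ASO-Ctr and 978, 999.8, 912 and 946 CPM in ASO-L1 (-0.19 ± 0.02, adjusted p = 7.38e-06). EPCAM, an epithelial adhesion protein, was the member that rose (0.24 ± 0.03), and did not pass without the block (adjusted p = 0.18). Without the block 3 of the 12 were lower and 0 higher.

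Germ line genes were mostly lower or not called. Of 24 tested genes of meiosis and the germ line, 12 were lower and 1 higher (median -0.40), and 4 and 1 without the block. These are 50% lower and 4.17% higher with the block, against 22.3% and 21.2% of all genes tested. STAG3, a cohesin subunit of meiosis, had 20.9, 18.5, 17.5 and 16.6 CPM in ASO-Ctr and 12.5, 13.8, 13.3 and 12.3 CPM in ASO-L1 (-0.49 ± 0.07, adjusted p = 1.17e-05). DMRT1, a factor of male germ cell development, was the exception, with 0, 0.239, 0.277 and 0.495 CPM in ASO-Ctr and 3.08, 2.52, 2.67 and 2.9 CPM in ASO-L1 (3.38 ± 0.32). DMRT1 had few reads in ASO-Ctr and was tested through its level in ASO-L1. The summed level of the germ line list was 232 to 238 CPM in ASO-Ctr and 194 to 201 CPM in ASO-L1. SPO11, the enzyme that opens meiotic recombination, had no read. Among cancer-testis antigens, of which 8 of 116 could be tested, MAGEB2 was lower (-0.55 ± 0.09) with 3 others and none was higher.

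Some markers of other lineages rose, several of them from a low level. CER1, an inhibitor of Nodal and BMP made in the anterior endoderm and primitive streak, had 18.3, 17.6, 9.71 and 9.85 CPM in ASO-Ctr and 116, 103, 62.1 and 66.6 CPM in ASO-L1 (2.65 ± 0.05, adjusted p = 4.33e-17). CER1 is also a direct target of Nodal signalling in stem cells. Among 20 mesoderm and streak markers listed, 6 could be tested, of which MIXL1 rose too (0.61 ± 0.07) and PDGFRA fell (-0.71 ± 0.06). GATA6, a factor of the endoderm, had 0.0498, 0.0342, 0.277 and 0 CPM in ASO-Ctr and 0.71, 0.975, 1.49 and 1.39 CPM in ASO-L1 (3.60 ± 0.42). With so few reads in ASO-Ctr, GATA6 was tested only through its level in ASO-L1. The liver and yolk sac gene TTR had no read in any of the 8 libraries.

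In the list of muscle genes all calls were upward, and fibroblast markers moved both ways. RYR2, the heart muscle gene described above as lower, was not in that list. Of 14 muscle genes tested, of 25 in the table, 8 were higher and 0 lower, and 6 and 0 without the block. These are 57.1% higher with the block, against 21.2% higher and 22.3% lower of all genes tested. The summed level was 113 to 138 CPM in ASO-Ctr and 213 to 230 CPM in ASO-L1. CNN1, a calponin of smooth muscle, had 13.5, 13.3, 16.3 and 15.1 CPM in ASO-Ctr and 55.5, 59.2, 66.8 and 67.5 CPM in ASO-L1 (2.10 ± 0.05, adjusted p = 1.15e-15). MB, myoglobin, went from 0.363 ± 0.126 to 2.87 ± 1.08 CPM (2.93 ± 0.21). MB had few reads in ASO-Ctr and was tested through its level in ASO-L1. The share of higher muscle genes is thus partly set by the filter. Of 16 fibroblast and feeder markers 7 were higher and 3 lower (43.8% and 18.8%), and 6 and 0 without the block. Their summed level was 1272 to 1422 CPM in ASO-Ctr and 1673 to 1718 CPM in ASO-L1. VIM, the filament protein vimentin, went from 116 ± 9.92 to 293 ± 48.5 CPM (1.32 ± 0.04) and COL1A1, a chain of type I collagen, from 66.4 ± 19.8 to 115 ± 22.1 CPM (0.82 ± 0.05; 0.964 in numbers 1 and 2 against 0.687 in numbers 3 and 4, adjusted p = 0.0469 for the difference). COL1A2, the partner chain of COL1A1, fell from 169 ± 22.9 to 148 ± 11.2 CPM (-0.18 ± 0.03). FN1, fibronectin, had -0.11 ± 0.03 and POSTN, periostin, -0.40 ± 0.15, both called lower. None of these 3 passed without the block (adjusted p = 0.201, 0.0871 and 0.673 in edgeR's quasi-likelihood test). FN1 also missed the threshold without ASO-Ctr 3 (0.0677) or ASO-L1 3 (0.0731), and POSTN without any 1 of the 8 libraries (0.069 to 0.121). With the block, leaving out 1 library also takes its same-number partner out of the comparison. These are therefore not 8 separate checks. The fibroblast markers FAP and DPT had no read in any of the 8 libraries, and in endothelium and blood HBG1 had none. Whether a change in the kinds of cells present has a part in these rises was not tested.

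The remaining marker lists held few members that could be tested, and their counts shrank without the block. Neural markers had 7 higher and 3 lower of 20 (35% and 15%, against 21.2% and 22.3% of all genes tested), and 3 and 2 without the block, with a summed level of 1078 to 1185 CPM in ASO-Ctr and 1341 to 1371 CPM in ASO-L1. Endoderm and yolk sac markers had 4 higher and 1 lower of 10 (2 and 0 without the block), at 820 to 863 CPM and 990 to 1031 CPM. Most of this sum was APOE, which went from 784 ± 20.7 to 954 ± 21.7 CPM. Trophoblast markers had 4 higher and 1 lower of 10 (3 and 0 without the block), and amnion markers 3 higher and 0 lower of 7 (1 and 0). The sums overlapped for trophoblast (67.1 to 83.8 CPM in ASO-Ctr and 72.2 to 75.3 CPM in ASO-L1) and not for amnion (203 to 212 CPM and 221 to 234 CPM). Most of the amnion sum was TPM1, which went from 170 ± 9.24 to 188 ± 12.9 CPM with groups that overlapped. The trophoblast markers XAGE2 and VGLL1 had no read. Endothelium and blood markers had 6 higher and 2 lower of 12 (3 and 1 without the block), with sums of 24.2 to 36.9 CPM and 28.1 to 37.3 CPM that overlapped. The part of such cells in the results was not tested.

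Long noncoding RNAs changed in both directions. Of 232 long noncoding RNAs by annotation, 20.3% were higher and 15.1% lower, beside 22.7% and 24.7% of coding genes. This difference was not tested, and the shares called also go with level. LINC00324 had 0.299, 0.274, 0.555 and 0.371 CPM in ASO-Ctr and 4.49, 5.22, 4.5 and 4.73 CPM in ASO-L1 (3.65 ± 0.20, adjusted p = 1.25e-10). RP11-554D14.4 had 0.548, 0.41, 0.872 and 1.03 CPM in ASO-Ctr and 2.33, 2.08, 11.3 and 11.5 CPM in ASO-L1 (3.20 ± 0.20). With ASO-L1 it was highest in numbers 3 and 4, whereas LINC00324 was even. Among lower ones, RP11-20D14.6 went from 96.3 ± 2.25 to 65.6 ± 1.32 CPM (-0.55 ± 0.04), LINC00698 from 11.3 ± 0.707 to 5.87 ± 0.83 CPM (-0.94 ± 0.09) and SNHG14, the long host transcript of small nucleolar RNAs at the Prader-Willi locus, from 923 ± 67.7 to 767 ± 55.9 CPM (-0.27 ± 0.03). UNC5B-AS1 rose (1.68 ± 0.13) and so did C17orf76-AS1 (198 ± 18.9 to 265 ± 22.3 CPM, 0.42 ± 0.03). Whether the counting used the strand is not given in the sources used here, so an antisense gene and its partner cannot be told apart.

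The libraries held 20614389 to 32180891 counts each, and mitochondrially encoded RNAs took 4.74% to 8.81% of them. In a principal component analysis of the 8 libraries the first 2 components held 45.8% and 31.1% of the variance, and the libraries lay apart both by oligo and by number, with numbers 1 and 2 away from numbers 3 and 4. The labels do not say what the numbers share. A fit of all 8 libraries with a separate change for each set gave 2925 genes higher and 3103 lower in numbers 1 and 2. For numbers 3 and 4 it gave 2652 and 2765. The filter and the spread came from all 8 libraries, so these are not 2 independent analyses. The change differed between these 2 sets of libraries for 107 genes.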

How the data were processed

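RNA-seq read counts per gene were used as deposited by the authors in 1 table of whole-number counts. Per the submitters' processing notes, the tools included Trim Galore 0.4.0, TopHat2 2.0.13 and featureCounts of Subread 1.5.0, with the build hg19; the submitters' label for the table carries the tag rmDup, which points to removal of duplicates, while the method and the strand setting are not given in the sources used here. A row without a gene name, with at most 1.3e-05% of a library's counts, was left out, and 12 symbols read as dates in the table.

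The 8 libraries were fitted together with edgeR 4.0.16 in R 4.3.3: the default expression filter by group (minimum count 10), TMM scaling, and a robust quasi-likelihood test with the library number as a block. P-values were adjusted over all 16924 genes by Benjamini and Hochberg's method and called under 0.05; ± after a log2 fold change is its standard error, and ± after a level is the SD over 4 libraries. Same-numbered libraries deviated together (r from 0.57 to 0.671 over genes, for all 4 numbers). Libraries 1 and 2, and 3 and 4, of opposite groups were as close to each other (r from 0.594 to 0.62), so the numbers mark 2 sets of libraries at least. Libraries of a group differed by more than sampling noise (chi-square per gene from 1.87 to 33.7). A level of 3 counts was 0.0932 to 0.146 CPM. The fit was tested on simulated data, where the share of false calls was above the nominal level, so the counts of called genes may hold more false calls than the threshold states.

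Members, gene lists and tests were chosen with earlier results of these data known. Named genes were called genes with the same direction in all 4 pairs: the 12 largest fold changes each way at a mean of at least 2 CPM, the 8 largest changes in CPM each way, up to 8 at no more than 0.1 CPM in every library of a group, up to 3 per list and direction by p, and 6 noncoding genes each way by p at a mean of at least 1 CPM. To these were added the 6 highest genes with a 95% interval within 0.1 of 0. Not every gene of these rules is printed. Gene class, span and chromosome came from GENCODE 29 by symbol (89.7% of tested genes matched), promoters from RefSeq. Alternatives used limma 3.58.1 and DESeq2 1.42.0.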

Additional observations from a re-analysis of the deposited data

Results flagged for a closer look

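Within the groups of 4 libraries, 318 sets of values were examined for a single library far from the other 3, and 9 held one; chance gives about 1 in 20. The share of mitochondrially encoded RNA was 4.74% in ASO-Ctr 2 and 7.81% to 8.08% in the other ASO-Ctr libraries. ARID1B stood at 102.7 CPM in ASO-Ctr 1 against 94.0 to 94.8 CPM. ATM stood at 42.1 CPM in ASO-L1 2 against 34.6 to 35.8 CPM. ASO-L1 3 was the separate library for LINC00698 (7.10 CPM against 5.26 to 5.57), for NPM1 (1802 CPM against 1920.0 to 1934) and for TWIST1 (13.6 CPM against 11.9 to 12.2). SEMA6D was at 1.14 CPM in ASO-L1 4 against 1.54 to 1.59 CPM. CDH16 had 0 CPM in ASO-Ctr 1 against 0.0342 to 0.0412 CPM, and KRT6A had 0.0824 CPM in ASO-Ctr 4 and 0 in the others; both rest on 3 reads or fewer.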

How the results depend on the processing

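Leaving out the replicate block lowered the counts from 3592 higher and 3773 lower genes to 1786 and 1704; of these, 3479 were also called with the block, all in the same direction. The other settings kept both counts within 1.5 times: all 12 libraries, DESeq2 size factors, total counts, the DESeq2 Wald test, limma-voom, and both filters on low counts. Without 1 library at a time the counts ran from 3072 to 3370 higher and from 3019 to 3339 lower. With the block, each such fit also loses the same-number partner from the comparison, so the 2 fits of a number are not separate checks. DESeq2's Wald test gave 2408 and 2576. Among the printed genes, 10 calls were lost without the block. In the fit of all 8 libraries with a change for each set, some calls were lost. For numbers 1 and 2 these were EEF1A1 (adjusted p = 0.068 in edgeR's quasi-likelihood test), COL1A2 (0.0523) and POSTN. For numbers 3 and 4 they were ACTG1 (0.072) and POSTN. POSTN was also lost with total counts, DESeq2's Wald test and no filter (0.053, 0.225 and 0.0813). No printed gene with a call changed direction under these settings; among the steady genes, whose values lie near 0, GAPDH, HSP90AB1, NPM1 and PKM changed sign under some. Shares by span without the block were added after seeing the data. Genes near the floor of 3 counts limit what can be said of low levels, and the numbers' meaning is not in the labels.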
